A study of Mus musculus with 6 samples.

Results

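The genes described here encode the nuclear lamina, the proteins that tie it to the inner nuclear membrane, and the LINC complex, which joins the nucleus to the cytoskeleton. The list has 10 genes, and 9 of them were measured by a probe set that carried their symbol alone. They were chosen by name from the 22180 genes named on the array. Where several probe sets carried a symbol, the brightest on average was read and the others are given beside it. The 10th, Syne2, had 1 probe set, which was annotated to the microRNA gene Mir5101 as well, and was not analysed here under its name.

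The lungs came from 6 CD1 mice aged 10 weeks, each measured on its own array from 100 ng of total RNA. CD1 is an outbred stock, so the mice also differ genetically. The intact group of 3 mice had a sham procedure, and the preconditioned group of 3 mice was ventilated at low pressure for 90 minutes, with the lung sampled 1 week later. The labels give no transgene, mutation or drug for either group. Values are log2 RMA values, in which 1 unit is a doubling of signal. RNA of the whole lung was used, so fewer cells of a type and less RNA per cell cannot be told apart.

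Lamins are intermediate filament proteins that form a meshwork under the inner nuclear membrane. A-type lamins come from Lmna and B-type lamins from Lmnb1 and Lmnb2. The lamina is held to the membrane by proteins such as emerin and the lamin B receptor, and it gives the nucleus its stiffness. In the LINC complex, SUN proteins of the inner membrane bind nesprins of the outer membrane, which reach actin, microtubules or intermediate filaments, so that force on a cell can pass to its nucleus. In the lung, breathing and mechanical ventilation stretch the cells of the alveolar wall. Setting the 2 groups side by side shows how far these genes differ 1 week after a ventilation of that kind.

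No member passed an adjusted p of 0.05 in limma, where 0.0947% of all genes passed. The largest differences among the members were those of Emd, 1.40-fold lower in preconditioned lungs, and Lbr, 1.46-fold lower. The lamin genes, both SUN genes and the prelamin protease gene Zmpste24 differed by 0.21 or less on the log2 scale at the probe sets read. Syne1, the gene of nesprin-1, had a log2 difference of 0.04 at its brightest probe set, where the groups overlapped. Of its 59 probe sets, however, 51 were higher in preconditioned lungs. At an unadjusted p under 0.05, 2 of the 9 members were lower (11.6% of all genes) and 0 were higher (7.53% of all genes). Groups did not overlap for 1 member that was lower, against 13.0% of all genes, and for 0 that were higher, against 11.7%. With median centring these shares of all genes were 17.0% and 7.40%, and 2 members, Emd and Zmpste24, lay apart and lower. Of genes at or above the median level, 22.2% lay apart and lower. The median log2 difference was -0.08 over the 9 members and 0.01 over all genes, and 5 of the 9 members were lower. The members' median was 0.0003 when quantiles were matched again (4 of 9 lower), -0.002 with cyclic loess and -0.13 with median centring, so the direction of the list depended on the scaling.

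The sequence before the start of transcription is shown for the genes with the largest differences, Emd and Lbr, and for the 3 starts of Syne1, whose probe sets differed among themselves. It was taken from RefSeq annotation of the mouse build GRCm38.p6, which held windows for 9 of the 10 listed genes. All 250 bases upstream are given for Emd and Lbr and the last 100 before each start for Syne1, 5′ to 3′ on the strand of the gene. Capitals mark matches, on either strand, to the GC box (GGGCGG), the CCAAT box (CCAAT), the E-box (CACGTG), the cyclic AMP response element core (TGACGTCA), the AP-1 site (TGANTCA) or the ETS core (CCGGAAG).

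Emd, chrX:74254437-74254686, strand plus: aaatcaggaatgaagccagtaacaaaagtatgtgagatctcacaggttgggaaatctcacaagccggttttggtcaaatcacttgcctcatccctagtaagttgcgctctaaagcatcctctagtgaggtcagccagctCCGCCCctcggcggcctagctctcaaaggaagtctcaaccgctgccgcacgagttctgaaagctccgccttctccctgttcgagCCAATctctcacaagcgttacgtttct
Lbr, chr1:181842402-181842651, strand minus: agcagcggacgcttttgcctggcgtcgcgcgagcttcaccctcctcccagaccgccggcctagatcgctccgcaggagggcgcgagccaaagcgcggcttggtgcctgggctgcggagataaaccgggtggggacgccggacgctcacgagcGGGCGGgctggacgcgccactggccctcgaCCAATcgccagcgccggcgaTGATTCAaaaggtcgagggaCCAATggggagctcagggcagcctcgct
Syne1, most upstream start, chr10:5550693-5550792, strand minus: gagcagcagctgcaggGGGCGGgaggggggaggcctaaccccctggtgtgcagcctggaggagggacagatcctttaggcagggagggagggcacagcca
Syne1, middle start, chr10:5488315-5488414, strand minus: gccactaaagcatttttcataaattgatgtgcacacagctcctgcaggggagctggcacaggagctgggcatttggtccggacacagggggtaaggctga
Syne1, most downstream start, chr10:5069064-5069163, strand minus: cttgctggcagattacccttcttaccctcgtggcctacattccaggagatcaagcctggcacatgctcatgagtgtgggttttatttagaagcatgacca

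Within 250 bases, Emd held 1 GC box and 1 CCAAT box. Lbr held 1 GC box, 2 CCAAT boxes and 1 AP-1 match. Of all 32851 windows of the table, 32.7% held a GC box, 33.8% a CCAAT box and 6.75% an AP-1 match, and the other motifs were held by 6.02% (E-box), 1.55% (cyclic AMP response element core) and 6.91% (ETS core). The most upstream start of Syne1 held 2 GC boxes, 1 of them within the 100 bases shown, and the other 2 starts held none of the 6 motifs. Over 250 bases the Syne1 starts also differed in base composition, with 68.0%, 38.8% and 50.8% G and C from the most upstream to the most downstream. The 3 starts lie in 1 gene, so transcripts of different length are annotated for it. The letters searched for the AP-1 site allowed any middle base, which was T in the Lbr match. A match is a run of letters and was not tested as a binding site.

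The arrays themselves had some structure that bears on every value. On the first principal component, which held 46.6% of the variance over genes, intact replicate 1 lay at -0.51, while the other intact arrays lay at -26.5 and -28.4 and the preconditioned arrays between 12.3 and 25.8. The values of Emd, Lbr, Zmpste24, Lmnb2 and the pair of SUN genes are given with and without it. Markers of alveolar type 2, type 1 and endothelial cells had mean levels over each list of 8 genes from 10.8 to 11.5, 9.82 to 10.5 and 9.62 to 10.2. They were lower in the mean in preconditioned lungs for 8, 7 and 7 of 8 genes, with median log2 differences of -0.38, -0.33 and -0.23, and 0 passed. These are bright genes, and of all genes at or above the median level 22.2% lay apart and lower and 7.58% apart and higher. Fibroblast markers were divided, with 5 of 8 lower and 3 higher, a median of -0.19 and 0 past the threshold. The endothelial median was -0.09 with cyclic loess (5 of 8 lower) and -0.09 without preconditioned replicate 2, and the part of these cells in the members' values was not tested. Markers of striated muscle varied most between mice, from 6.32 in preconditioned replicate 1 to 8.89 in preconditioned replicate 2.

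Emd encodes emerin, a protein of the inner nuclear membrane with a LEM domain that binds lamins and the chromatin protein BAF. Its 1 probe set (17535752) read 7.48, 7.81 and 7.74 in the intact lungs, by replicate number, and 7.21, 7.20 and 7.16 in the preconditioned lungs. All 3 preconditioned lungs lay below all 3 intact lungs, and they lay close together. The means were 7.67 ± 0.18 and 7.19 ± 0.02 (SD, n = 3), a log2 difference of -0.49 (SE 0.11, adjusted p = 0.0949 in limma). The 95% interval of the difference ran from -0.73 to -0.24. At an adjusted p of 0.1 Emd was the 1 member called, where 2.89% of all genes were.

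The nearest intact lung to the preconditioned ones was replicate 1. Without it the difference in Emd was -0.59 (adjusted p = 0.0220), a call that 4.31% of all genes shared in the same direction. With arrays weighted by their fit it was -0.55 (adjusted p = 0.0317), where 3.76% of all genes were called lower. In the other 12 settings it lay between -0.54 and -0.41 with no call. Leaving out intact replicate 2 gave an adjusted p of 0.299, and leaving out replicate 3 gave 0.314.

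Lbr encodes the lamin B receptor, which spans the inner nuclear membrane, binds B-type lamins and heterochromatin, and carries a sterol reductase activity. It is known for shaping the lobed nuclei of neutrophils. Its values by replicate number were 8.63, 9.16 and 9.14 in the intact lungs and 8.54, 8.09 and 8.67 in the preconditioned lungs. Intact replicate 1 lay within the range of the preconditioned lungs, so the groups overlapped. The means were 8.98 ± 0.30 and 8.44 ± 0.30 (SD, n = 3), a log2 difference of -0.55 (SE 0.19, 95% interval -0.98 to -0.11, adjusted p = 0.185 in limma). Without intact replicate 1 the groups lay apart and the difference was -0.72 (adjusted p = 0.0599). It was -0.37 without preconditioned replicate 2, the lowest lung, and its call did not change in any of 14 settings (adjusted p from 0.0599 to 0.462).

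Most lists of blood cell and macrophage markers were lower in preconditioned lungs, as were the alveolar and endothelial lists given above, while fibroblast markers were divided. All 8 neutrophil markers were lower (median -1.17), and their mean level was 5.94 to 7.67 in intact and 5.53 to 5.66 in preconditioned lungs. By mouse, the neutrophil list deviated from its mean by -0.20, 0.32 and 1.53 in intact replicates 1 to 3 and by -0.62 to -0.48 in preconditioned lungs. Leaving out intact replicate 3 brought the median of the list to -0.60, and leaving out replicate 1 brought it to -1.64. Monocyte and macrophage markers (8 of 8 lower, median -0.47), alveolar macrophage markers (8 of 8, -0.63) and T and NK cell markers (8 of 8, -0.48) were also lower. Without intact replicate 2 the T and NK median was -0.26. The mean levels of these 3 lists were 7.59 to 8.05 and 7.12 to 7.25, 7.15 to 7.64 and 6.76 to 6.86, and 6.36 to 7.01 and 5.63 to 6.25 in intact and preconditioned lungs. Mesothelial markers, from the lining of the lung surface, were lower as well (8 of 8, median -0.91, levels 7.51 to 8.07 and 6.56 to 7.25). Of 5 red cell markers 4 were lower (median -0.67). B cell markers were not lower as a list, with 3 of 7 below the intact mean and a median of 0.14, which was -0.06 without intact replicate 3. On this scale no marker is at 0, and the dimmest in the neutrophil, macrophage, T and NK and mesothelial lists lay at 4.03. The part of these cells in the values of Emd and Lbr was not tested.

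**Figure D1:**
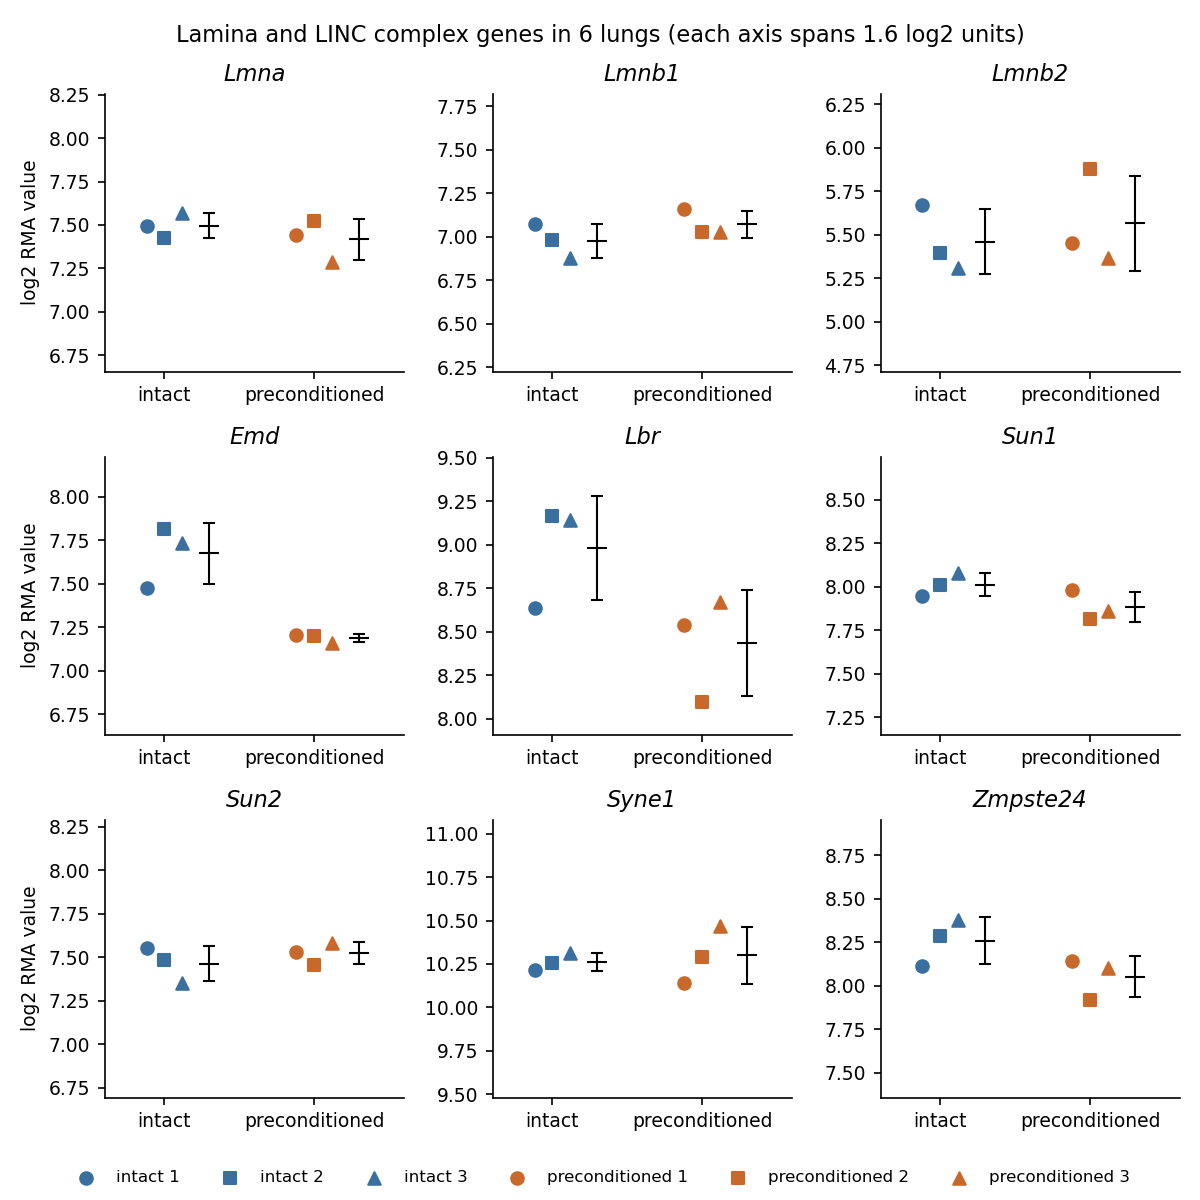
Log2 RMA values of the 9 measured genes in each of 6 mice (vertical axes, each spanning the same range), with the intact group in blue and the preconditioned group in orange. Bars show the mean and SD of 3 mice, and of these genes only Emd has groups that do not overlap, at 7.48 to 7.81 in intact and 7.16 to 7.21 in preconditioned lungs.

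Lmna encodes lamins A and C, the lamins whose amount is known to follow the stiffness of a tissue. It was at 7.50, 7.42 and 7.57 in intact and 7.44, 7.52 and 7.29 in preconditioned lungs. The values of the groups overlapped, with preconditioned replicates 1 and 2 within the range of the intact lungs. The log2 difference was -0.08 (95% interval -0.30 to 0.15, adjusted p = 0.701), so an increase of more than 0.15 or a decrease of more than 0.30 lies outside the interval. After quantile normalization again it was 0.0003, and it was negative in the other 13 settings.

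Lmnb1 and Lmnb2 encode the B-type lamins, which stay attached to the membrane by a lipid anchor. Lmnb1 was at 7.07, 6.98 and 6.88 in intact and 7.16, 7.03 and 7.03 in preconditioned lungs. Intact replicate 1 lay above preconditioned replicates 2 and 3, and the log2 difference was 0.09 (95% interval -0.12 to 0.31, adjusted p = 0.622). It was positive in all 14 settings, from 0.04 to 0.15, without a call. Lmnb2 was at 5.67, 5.40 and 5.31 in intact and 5.45, 5.88 and 5.37 in preconditioned lungs, below the median level of all genes (5.95). Its difference was 0.11 (95% interval -0.25 to 0.47, adjusted p = 0.744), and its lungs varied more within a group than the groups differed. It was 0.21 without intact replicate 1 and without preconditioned replicate 3, and -0.05 without preconditioned replicate 2. Lmnb1 mRNA is known to be higher in dividing cells, and proliferation markers had a median difference of 0.01 over 7 genes, 3 of them lower. With median centring 6 were lower (median -0.04), and without intact replicate 1 the median was 0.17. The direction of this list thus depended on the scaling and on single arrays, and its part in the Lmnb1 values was not tested.

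The balance of A-type to B-type lamin was compared within each array as the log2 value of Lmna minus that of Lmnb1. It was 0.52 ± 0.15 in intact and 0.35 ± 0.13 in preconditioned lungs (SD, n = 3), a difference of -0.17. In an exact two-sided permutation test over the 6 arrays this gave p = 0.3 (0.3 after adjustment over 2 pairs), where 3 against 3 arrays cannot go below 0.1. Without intact replicate 3 the difference was -0.08 (exact permutation p = 0.4). Without preconditioned replicate 2 it was -0.25 (exact permutation p = 0.1, the smallest this test allows). The levels of different probe sets are not comparable, so only the difference between groups can be read from this balance.

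Zmpste24 encodes the metalloprotease that trims farnesylated prelamin A to mature lamin A. It was at 8.11, 8.28 and 8.38 in intact and 8.14, 7.92 and 8.10 in preconditioned lungs, where intact replicate 1 lay below preconditioned replicate 1. The log2 difference was -0.21 (95% interval -0.46 to 0.04, adjusted p = 0.335). It was -0.28 without intact replicate 1 (adjusted p = 0.174) and -0.10 to -0.26 under the 3 other scalings of the arrays.

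A list of other genes, of lipid attachment to proteins and of prelamin processing, was lower in the mean in all 8 cases. Among all genes 47.3% were lower. Most of these 8 genes lay above the median level of all genes (5.95). At or above that level 22.2% of genes lay apart and lower and 7.58% apart and higher, so brighter genes leaned lower too. In this list 1 gene lay apart and lower and 0 apart and higher. The median of the list was -0.27, and 0 of 8 passed over all genes. Narf, which binds prenylated prelamin A, had the largest difference (7.12 ± 0.16 in intact and 6.62 ± 0.10 in preconditioned lungs; SD, n = 3; log2 difference -0.50, adjusted p = 0.0949). Fnta, the alpha subunit of farnesyltransferase, was at -0.32, Ggps1, which makes the geranylgeranyl lipid, at -0.29, and the CaaX protease gene Rce1 at -0.25 (adjusted p from 0.247 to 0.338). The median of the 8 genes lay between -0.32 and -0.19 under the other scalings, with a mean over probe sets and without each array in turn, and 7 or 8 of them were lower each time.

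**Figure D2:**
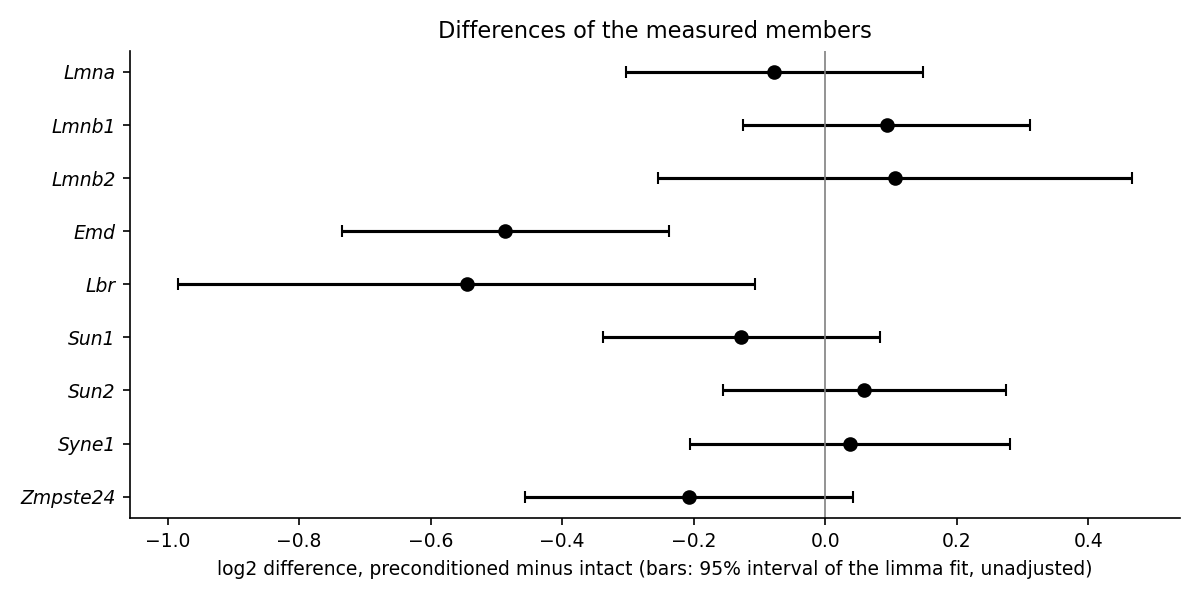
Log2 difference between preconditioned and intact lungs for the 9 measured genes (horizontal axis), with bars for the 95% interval of the limma fit, not adjusted for the number of genes. The intervals of Emd (-0.73 to -0.24) and Lbr (-0.98 to -0.11) lie below 0, and the other 7 include it.

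Sun1 and Sun2 encode the SUN proteins that cross the inner membrane and hold nesprins from the inside. Sun1 was at 7.95, 8.01 and 8.08 in intact and 7.98, 7.81 and 7.86 in preconditioned lungs. Preconditioned replicate 1 lay above intact replicate 1, and the log2 difference was -0.13 (95% interval -0.34 to 0.08, adjusted p = 0.479). Sun2 had 2 probe sets. The brighter one (17319299) was at 7.55, 7.48 and 7.35 in intact and 7.53, 7.46 and 7.58 in preconditioned lungs, a difference of 0.06 (95% interval -0.16 to 0.28, adjusted p = 0.759). The other (17313039), at a mean level of 5.14, gave -0.15, so the sign for Sun2 depended on the probe set, and neither passed. Their mean gave -0.05.

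Within arrays, Sun1 minus Sun2 was 0.55 ± 0.17 in intact and 0.36 ± 0.08 in preconditioned lungs (SD, n = 3). The difference of -0.19 had an exact two-sided permutation p = 0.2 (0.3 after adjustment over the 2 pairs). Without intact replicate 1 it was -0.26 (exact p = 0.1, the smallest this test allows), and with the mean of both Sun2 probe sets it was -0.08. The pair of nesprin genes planned beside these was not tested because Syne2 had no probe set of its own.

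Syne1 encodes nesprin-1, a very large protein of the outer nuclear membrane that binds actin at its far end and SUN proteins at its membrane end, and also exists as short forms, best known from muscle. The array held 59 probe sets with its symbol alone, more than for any other member of the list. The brightest (17238846) was at 10.2, 10.3 and 10.3 in intact and 10.1, 10.3 and 10.5 in preconditioned lungs. Its groups overlapped, with a log2 difference of 0.04 (95% interval -0.21 to 0.28, adjusted p = 0.870), which was -0.01 after median centring of the arrays and -0.05 without preconditioned replicate 3.

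The other probe sets mostly gave another picture. Over all 59, the median log2 difference was 0.25 and the quartiles were 0.15 and 0.40. In the preconditioned group 51 were higher and 8 lower, where 53.6% of all 23521 probe sets with 1 symbol were higher. Groups did not overlap for 27 probe sets of Syne1, all of them higher, where 12.1% of all probe sets lay apart in that direction. With median centring the count was 17 higher and 1 lower, against 7.67% of all probe sets higher. Without preconditioned replicate 1 it was 40, against 17.7%. At an unadjusted p under 0.05 there were 27 higher and 0 lower, where 7.88% of all probe sets were higher, and none passed over all probe sets (lowest adjusted p = 0.0875). The 59 probe sets read 1 gene in the same 6 RNA samples and are not independent of each other.

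As examples, the probe sets with the largest difference and with the lowest p were chosen after their values were seen. Probe set 17238882 was at 9.21, 8.72 and 8.87 in intact and 9.35, 9.65 and 9.61 in preconditioned lungs, a difference of 0.61 (SE 0.15, adjusted p = 0.104). Probe set 17238866 was at 9.03, 8.87 and 8.80 in intact and 9.27, 9.60 and 9.55 in preconditioned lungs, a difference of 0.58 (SE 0.12, adjusted p = 0.0875). In both, every preconditioned lung lay above every intact lung, and preconditioned replicate 1 was the lowest of its group.

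The probe sets that went the other way were few, and 3 of them had neighbouring numbers on the array. Probe sets 17238916, 17238918 and 17238920 gave -0.06, -0.54 and -0.19. In 17238918 intact replicates 2 and 3 were at 7.91 and 7.96 and the preconditioned lungs at 6.79, 7.31 and 7.15, with intact replicate 1 between them, so the groups overlapped. The other 5 lower probe sets lay between -0.09 and -0.03. Which exons each probe set covers was not analysed here, so no order along the transcript can be read from these numbers.

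**Figure D3:**
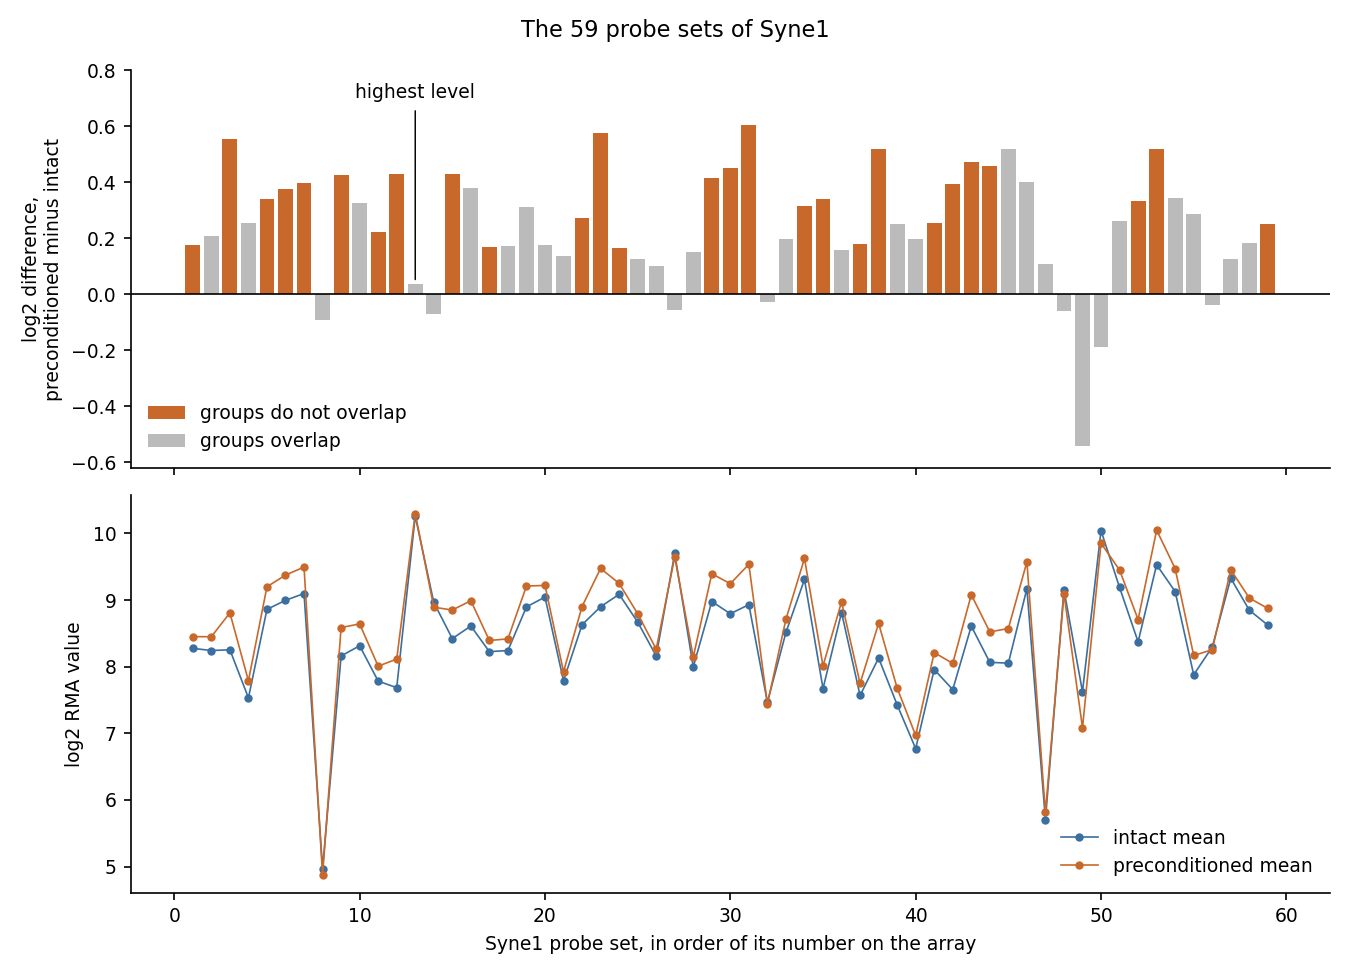
The 59 probe sets of Syne1 in order of their number on the array (horizontal axis), with the log2 difference between preconditioned and intact lungs above and the mean log2 RMA value of each group below. Orange bars mark the 27 probe sets whose groups do not overlap, and the line labelled highest level marks the probe set with the highest level, at 0.04, while 51 of the 59 bars lie above 0.

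With the mean over its 59 probe sets in each array, Syne1 was at 8.47, 8.34 and 8.38 in intact and 8.49, 8.72 and 8.71 in preconditioned lungs. The groups lay apart, by a narrow margin between intact replicate 1 and preconditioned replicate 1, where 11.9% of genes averaged in this way lay apart with the preconditioned group higher. The means were 8.40 ± 0.07 and 8.64 ± 0.13 (SD, n = 3), a log2 difference of 0.24 (SE 0.10, adjusted p = 0.232 in limma). Scaled by quantiles a further time it was 0.34, with median centring 0.19 and with cyclic loess 0.35, and it was 0.21 to 0.32 without each array in turn. Adjusted p lay between 0.173 and 0.501 in these settings, and between 50 and 56 of the 59 probe sets were higher. Of the 2 members with several probe sets, Sun2 and Syne1, the value of Syne1 moved more with that choice.

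Markers of muscle, where nesprin-1 is abundant, varied between the lungs. Among 8 striated muscle markers the SD over the 3 preconditioned lungs ran from 0.09 to 2.51, so not all of them varied widely. Striated muscle markers deviated from their mean by 0.30, -0.01 and 0.47 in the intact lungs and by -1.54, 1.02 and -0.24 in the preconditioned lungs, with 6 of 8 lower and levels of 7.85 to 8.34 and 6.32 to 8.89. Without preconditioned replicate 1, 2 of the 8 were lower and the median was 0.09 in place of -0.50, and without preconditioned replicate 2 it was -1.26, so these values rest on single arrays. Smooth muscle markers deviated by 0.36, -0.10 and -0.06 and by -0.22, 0.28 and -0.26, with 5 of 8 lower and levels of 8.30 to 8.76 and 8.14 to 8.68. The dimmest markers of these lists lay at 5.46 and 6.14, and the part of muscle in the Syne1 values was not tested.

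Other LINC and torsin genes had no common direction, with 7 of 13 lower, a median of -0.01 and 0 past the threshold. Syne3, the nesprin that binds plectin, was at 0.25 (6.01 ± 0.04 and 6.27 ± 0.13; SD, n = 3) and Spag4, another SUN protein gene, at 0.25. Tor1aip2, an activator of torsin ATPases in the endoplasmic reticulum, was at -0.24. Tmem43, a partner of emerin in the inner membrane, was at -0.66 (8.34 ± 0.51 and 7.69 ± 0.17; SD, n = 3), with groups that overlapped. The adjusted p of the 4 ran from 0.190 to 0.268.

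The other genes of the inner membrane and of LEM domain proteins were divided, with 6 of 10 lower, a median of -0.09 and 0 past the threshold. Lemd3, which encodes MAN1, a LEM protein that restrains SMAD signalling, was at 0.36 (7.49 ± 0.11 and 7.85 ± 0.10; SD, n = 3). Lemd2, also a LEM protein gene, was at 0.33. Both were higher with groups that did not overlap, where Emd was lower. Tmpo, which encodes the LAP2 proteins, was at -0.25 and Ankle2 at -0.20, both lower with groups apart. Of the 10 genes, 2 lay apart and lower and 2 apart and higher, where 13.0% and 11.7% of all genes did. The adjusted p of the 4 ran from 0.127 to 0.25.

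Nuclear pore genes leaned lower, with 21 of 23 measured members below the intact mean, a median of -0.18, and 0 past the threshold. Among all genes 47.3% were lower. At an unadjusted p under 0.05, 8 were lower and 0 higher, where 11.6% of all genes were lower and 7.53% higher. Groups lay apart and lower for 8 and apart and higher for 1, against 13.0% and 11.7% of all genes. Most pore genes lay above the median level of all genes (5.95). At or above that level 22.2% of genes lay apart and lower and 7.58% apart and higher, so brighter genes leaned lower too. Nup98, a mobile nucleoporin of the central channel, was at -0.45 (9.05 ± 0.13 and 8.60 ± 0.03; SD, n = 3; adjusted p = 0.0860). Ndc1, which anchors the pore in the membrane, was at -0.49, the Y complex gene Nup160 at -0.33 and Nup214, of the cytoplasmic face, at -0.32 (adjusted p from 0.109 to 0.144). The count of lower members was 18 (median -0.12) when quantiles were matched again, 16 (median -0.15) with cyclic loess, and 18 without preconditioned replicate 2.

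Genes of the cytoskeleton that nesprins reach were lower in 8 of 10 cases, with a median of -0.11 and 0 past the threshold. The beta-tubulin gene Tubb5 was at -0.51 (10.5 ± 0.06 and 10.0 ± 0.25; SD, n = 3). Of the actin genes, Actg1 was at -0.87 (10.3 ± 0.56 and 9.40 ± 0.13; SD, n = 3) and Actb at -0.32. In all 3 the groups lay apart (adjusted p from 0.114 to 0.155). Of the 10 genes, 3 lay apart and lower and 0 apart and higher, where 13.0% and 11.7% of all genes did. Among genes at or above the median level these shares were 22.2% and 7.58%. Bicd2, an adaptor of dynein, was at -0.19 (adjusted p = 0.327). With the mean over the probe sets of a gene 7 of the 10 were lower (median -0.14). After cyclic loess 5 of the 10 were lower and the median was 0.02, so the direction of this list depended on the scaling.

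**Figure D4:**
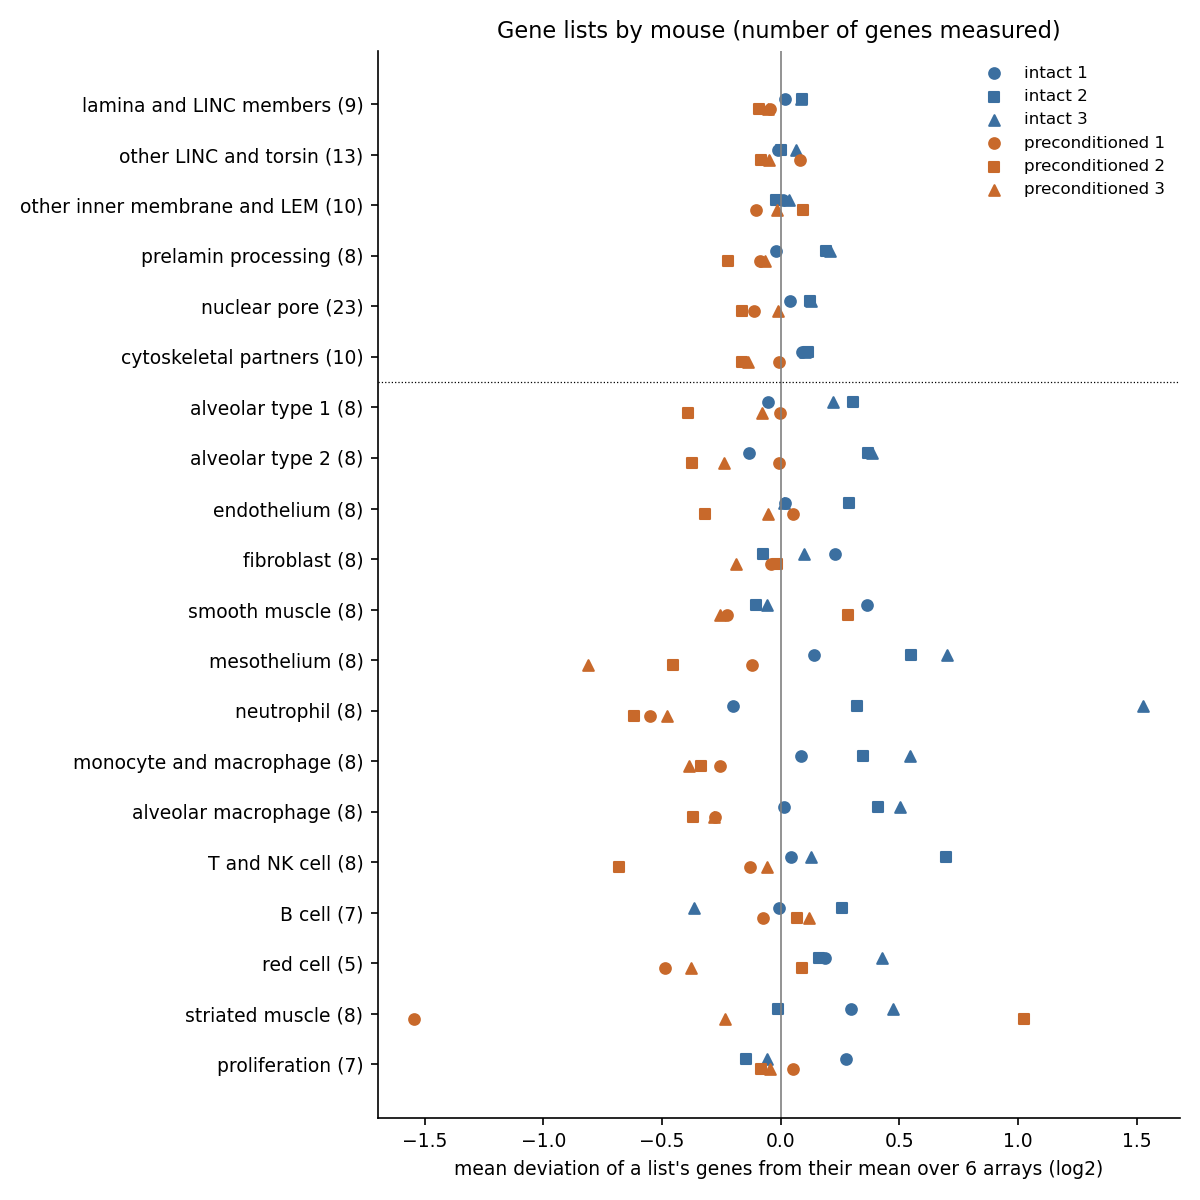
Mean deviation of the genes of each list from their own mean over the 6 arrays (horizontal axis, log2), by mouse, with intact mice in blue, preconditioned mice in orange and the number of genes measured in brackets. Lists above the dotted line belong to the nuclear envelope and its partners, where all values lie between -0.22 and 0.21, and those below it are cell type markers, which reach from -1.54 to 1.53.

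Without intact replicate 1 the groups lay apart for 5 members (Lmnb1 higher, and Emd, Lbr, Sun1 and Zmpste24 lower), and Emd passed. Of all genes 23.1% then lay apart and lower and 21.7% apart and higher. Without preconditioned replicate 1 there were 3, all lower (Emd, Sun1 and Zmpste24), against 18.8% of all genes, and without preconditioned replicate 3 there were 2, Emd and Lbr, against 17.6%. With the mean over probe sets 1 member, Emd, lay apart and lower, against 12.8%.

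**Figure D5:**
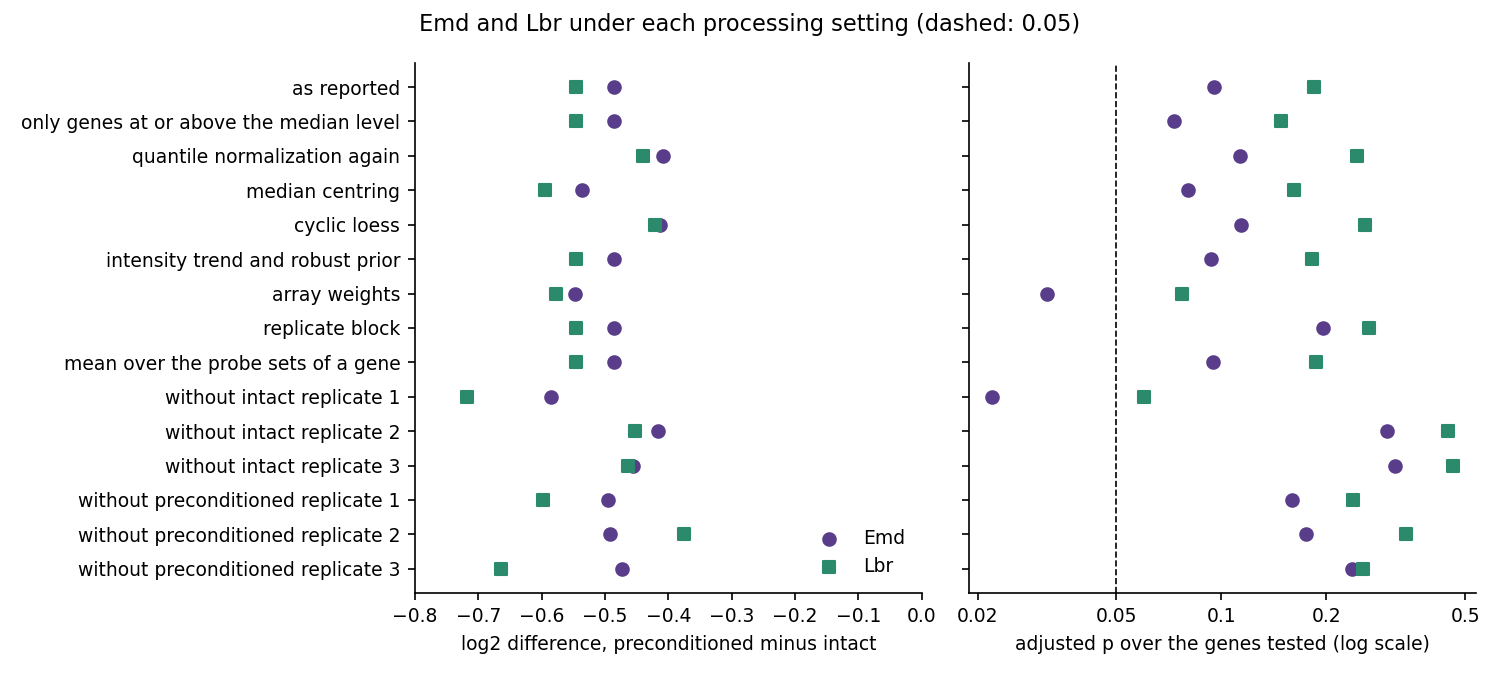
Log2 difference of Emd and Lbr between preconditioned and intact lungs (left) and adjusted p over the genes tested on a log axis (right), as reported and under each of 14 other settings. Both differences are below 0 in every setting, between -0.72 and -0.37, and the dashed line at 0.05 is passed by Emd without intact replicate 1 (0.0220) and with array weights (0.0317).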

How the data were processed

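Lung RNA of 6 mice was measured on 1-colour arrays. The authors deposited log2 values, which the submitters' processing notes tie to RMA and limma. Versions of these tools and the build behind the probe sets are not stated there, so no probe set position is printed. RMA can hide a change that most genes share. Array values have no read depth, and 3 arrays per group limit the precision. The labels call the arrays biological replicates.

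Of 41345 probe sets, 25335 were in the annotation table, of which 23521 had 1 symbol, giving 22180 genes, and 1814 had several and were not used under a name. The preconditioned minus intact difference of each gene was tested by limma's lmFit and eBayes, with no trend, and p was adjusted by Benjamini and Hochberg's method over all genes. Members, lists, the rule for named genes (all members, and up to 4 genes per envelope list by lowest p) and tests were chosen with earlier results of these data known. Lists are described by counts and medians and were not tested. In a fit over all 23521 probe sets, added after the values were seen, each Syne1 probe set was tested. Other settings tried were a filter on dim genes, 3 scalings, an intensity trend, array weights, a replicate block, probe set means, an adjusted p of 0.1 and leaving out each array. The fit was tested on simulated data. Tests ran in limma 3.58.1 under R 4.3.3, and figures were drawn with matplotlib 3.10.9.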

Additional observations from a re-analysis of the deposited data

How the results depend on the processing

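Of the 9 members, 0 passed an adjusted p of 0.05 in limma, and 1, Emd, passed with array weights, without intact replicate 1 and at an adjusted p of 0.1, so that leaving out each array in turn gave 0 to 1. Members with groups apart numbered 1 as reported, 2 after median centring (Emd and Zmpste24), 2 with the mean over probe sets (Emd and Syne1) and 1 to 5 without each array in turn. In either direction 24.4% of all genes lay apart after median centring, 24.7% with the mean over probe sets, and 30.1% to 44.8% without each array in turn. The 21 genes called over all genes became 76 above the median level, 55 with an intensity trend, 1125 with array weights, 642 at an adjusted p of 0.1, 4 with the replicate block and 2 to 1228 without each array in turn. No called value turned its sign.

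The labels give no pairing of the arrays by replicate number. Deviations from the group means correlated across genes at -0.06, -0.31 and -0.06 for equal numbers. With 3 arrays per group these values cannot settle whether equal numbers shared a batch. The replicate block in limma gave Emd an adjusted p of 0.196 and Lbr one of 0.266. The cause of these shifts was not tested. The printed intervals give the precision that 3 arrays per group allow.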
